A study of Danio rerio with 12 samples.

Results

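TCDD was compared with control in the zebrafish ventricle apex 6 hours after the apex had been amputated. The comparison rests on 4 of the 12 arrays of the series, chosen by their sample titles: 2 of TCDD 6 hpa and 2 of Control 6 hpa, where hpa stands for hours post amputation. Both groups were adult fish of the wild-type AB strain, and both had the same surgery. The TCDD fish had received 70 ng/g of the compound by intraperitoneal injection 1 day before surgery. The protocol names a vehicle injection for the controls, while their treatment label reads none. The other arrays are 2 each of control and TCDD in unamputated fish (0 hpa) and at 7 days post amputation (7 dpa). Every array carries RNA pooled from 10 hearts, so the p-values measure the spread between pools and not between single fish. Each array gave 1 intensity for each of 15502 probe sets, and levels below are log2 intensities.

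TCDD (2,3,7,8-tetrachlorodibenzo-p-dioxin) binds the aryl hydrocarbon receptor, a ligand-activated transcription factor that moves to the nucleus and pairs there with Arnt proteins. The pair binds DNA near target genes, of which the cytochrome P450 genes of the cyp1 family are the best known. In zebrafish, Ahr2 is the receptor through which most effects of TCDD are known to run. The adult zebrafish ventricle regrows after loss of its apex, and the first hours belong to clotting, stress and wound genes that precede the division of heart muscle cells.

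One array of the comparison, TCDD 6 hpa replicate 1, differed in profile from the other 11. It correlated with its partner array at r = 0.901 across probe sets, against 0.958 to 0.979 within the other groups. It held 461 probe sets more than 1 log2 unit below every other array and 202 more than 1 above, and its 99th percentile was 9.88 against 10.41 to 10.64. The log2 signal of the acta1 control probe sets at the 3′ end lay 2.50 above that at the 5′ end on this array and −0.45 to 1.51 above it on the others, a measure that grows as RNA degrades. The same difference for gapdh, 1.12, lay inside the range of the others, 0.52 to 1.96. Differences below are therefore given with this array and, where a second value follows the word then, without it. The tissue carried heart muscle RNA in all 4 pools, since all 9 measured cardiomyocyte markers lay above a log2 intensity of 5 on every array at 6 hpa.

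The first question was which genes differed between TCDD and control at 6 hpa. Two-sided moderated tests of limma across all probe sets, with Benjamini-Hochberg adjustment, called 2 of 15502 probe sets at an adjusted p below 0.05 (0.0129%). Both were higher with TCDD: cyp1a, which encodes a cytochrome P450 that oxidises planar aromatic compounds, and dnase1l4.1, named as a member of the deoxyribonuclease I family. Both were called again without TCDD 6 hpa replicate 1, where the count was also 2 (0.0129%). No probe set was called lower (0%), though 317 had an unadjusted p under 0.05 with a lower value (2.04%). In all, 421 probe sets had such a p (2.72%), 104 of them higher (0.671%), where uniform p-values would give 5%. Without TCDD 6 hpa replicate 1 there were 378 (2.44%), and the balance turned to 256 higher (1.65%) and 122 lower (0.787%).

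On the 2 control arrays at 6 hpa the level of cyp1a was 2.71 and 3.07, and on the 2 TCDD arrays it was 9.38 and 11.10. Each TCDD array lay more than 6 log2 units above both controls, with replicate 1 the lower of the pair. The mean level was 2.89 ± 0.25 in control and 10.24 ± 1.21 with TCDD (SD, n = 2 arrays each). The rise was 7.35 log2 units ± 0.47 (limma standard error, 95% interval 6.28 to 8.42, adjusted p = 0.00116), a 163-fold difference. Without TCDD 6 hpa replicate 1 it was 8.21 ± 0.30 (adjusted p = 3.6e-05). The control levels lay below the array medians of 3.26 to 3.53 and the tables carry no detection calls, so the fold is at best a lower bound.

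Levels of cyp1a in TCDD fish were 12.03 and 11.75 before amputation and 12.18 and 11.48 at 7 dpa, so that both arrays at 6 hpa were the lowest of the 6 TCDD arrays. The 6 control arrays ran from 2.71 to 3.64 and none overlapped a TCDD array. The TCDD difference was 8.33 at 0 hpa (adjusted p = 0.000514) and 8.87 at 7 dpa (adjusted p = 0.00015). The difference at 6 hpa was 0.98 smaller than at 0 hpa (95% interval of the change −2.50 to 0.53, adjusted p = 1.00) and 1.52 smaller than at 7 dpa (interval −3.04 to −0.00, adjusted p = 0.998), and neither passed the test. Without TCDD 6 hpa replicate 1 these changes were −0.13 and −0.66.

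The second called gene, dnase1l4.1, had levels of 3.07 and 2.89 in control at 6 hpa and of 5.75 and 5.67 with TCDD. The TCDD arrays lay close together, and replicate 1, which differed from its partner in so many genes, matched it here. The rise was 2.73 ± 0.18 log2 units (95% interval 2.31 to 3.15, adjusted p = 0.00116), or 6.63-fold, at best a lower bound for the same reason as in cyp1a, and 2.69 ± 0.23 without TCDD 6 hpa replicate 1 (adjusted p = 0.0155). On the 10 arrays outside TCDD 6 hpa the highest level was 3.77, in an unamputated control.

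At the other times dnase1l4.1 stood at 2.88 and 2.91 in unamputated TCDD fish, against 3.34 and 3.77 in their controls. At 7 dpa it stood at 2.72 and 2.94 with TCDD and at 2.75 and 2.90 in control. The TCDD difference was thus −0.66 at 0 hpa (adjusted p = 1.00) and 0.01 at 7 dpa (adjusted p = 1.00). The change of the TCDD effect itself was tested: it was 3.39 ± 0.26 higher at 6 hpa than at 0 hpa (adjusted p = 0.00699, and 0.0410 without TCDD 6 hpa replicate 1) and 2.72 ± 0.26 higher than at 7 dpa (adjusted p = 0.0221). The last call was lost without TCDD 6 hpa replicate 1 (2.68, adjusted p = 0.101). Across all probe sets, the first of these tests called 1 (0.00645%) and the second called 2 (0.0129%), the other being ca2, whose TCDD difference belongs to 7 dpa.

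**Figure D1:**
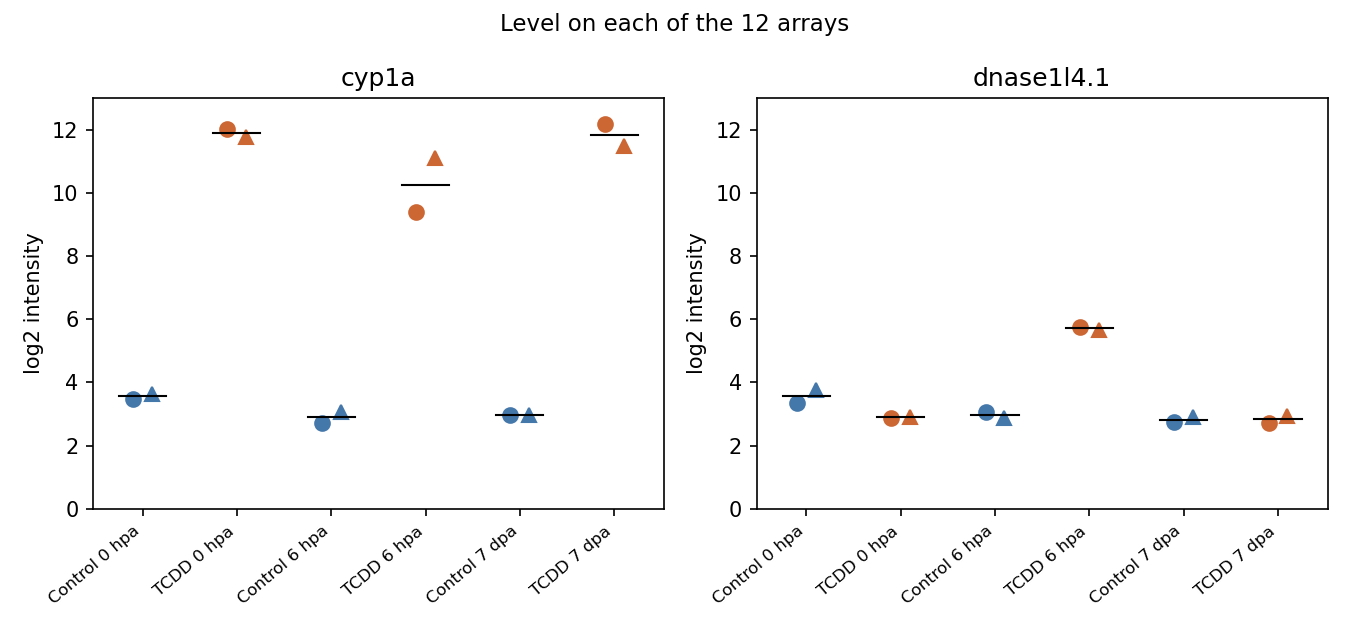
Log2 intensity of cyp1a and dnase1l4.1 on each of the 12 arrays, by group. Circles are replicate 1, triangles replicate 2, blue is control, orange is TCDD and the black bar is the mean of the 2 arrays. cyp1a is high on all 6 TCDD arrays and lowest among them at 6 hpa, 9.38 and 11.10, while dnase1l4.1 is above 3.77 only on the 2 arrays of TCDD 6 hpa.

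These calls depend on the spread being estimated over all 6 groups. Fitted to the 4 arrays at 6 hpa alone, limma called none (0 probe sets, 153 with an unadjusted p under 0.05, adjusted p = 1.00 for both genes).

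The receptor, its partners and its classic targets formed a list of 31 genes, of which 16 had a named probe set. Of these 16, 1 was called, cyp1a, and 3 were higher and 1 lower at an unadjusted p under 0.05. In 5 of them both TCDD arrays lay above both controls and in 2 below, where 11.1% and 9.19% of all probe sets did so (20.3% in either direction). The list's median difference was 0.15 log2 units, and 0.31 without TCDD 6 hpa replicate 1, beside 0.01 and −0.01 over all 8793 genes. No probe set carried the name of cyp1b1, cyp1c2, ahrra or ahrrb.

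Among the targets, tiparp, which encodes a member of the poly-ADP-ribose polymerase family that represses the receptor in mammals, stood at 6.69 and 6.17 in control and at 7.66 and 9.12 with TCDD. Both TCDD arrays lay above both controls, and replicate 2 lay further above. The difference was 1.96 ± 0.43 (95% interval 0.98 to 2.94) and did not pass over all probe sets (adjusted p = 1.00). Without TCDD 6 hpa replicate 1 it was 2.69 (adjusted p = 0.155). It was 1.99 at 0 hpa and 2.21 at 7 dpa, and the change from 0 to 6 hpa had an interval of −1.41 to 1.36.

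The cytochrome P450 gene cyp1c1 on its brightest probe set stood at 3.27 and 3.08 in control and at 4.76 and 7.40 with TCDD. The 2 TCDD arrays were above both controls but 2.64 apart. The difference was 2.90 ± 0.90 (95% interval 0.86 to 4.94, adjusted p = 1.00), and 4.22 without TCDD 6 hpa replicate 1 (adjusted p = 0.729). It was 4.30 at 0 hpa and 3.20 at 7 dpa, neither of them called. A further pair of probe sets for cyp1c1 gave 0.38, then −0.26, and 0.01, then −0.14, at 6 hpa. The detoxifying quinone reductase gene nqo1 stood at 2.66 and 2.84 in control and at 3.40 and 4.30 with TCDD, a difference of 1.1 that did not pass (95% interval −0.21 to 2.42), and then 1.55.

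The receptor gene ahr2 stood at 6.34 and 5.96 in control and at 5.87 and 7.65 with TCDD, so that the TCDD arrays lay on opposite sides of the controls. Its difference was 0.61 (95% interval −0.57 to 1.80) and 1.50 without TCDD 6 hpa replicate 1. The cytochrome b5 gene cyb5a, an electron carrier that serves P450 enzymes, stood at 6.23 and 4.71 in control and at 5.16 and 8.68 with TCDD, replicate 1 between the controls and replicate 2 above both. Its difference was 1.45 at 6 hpa (95% interval −0.76 to 3.66) and then 3.21, beside 4.01 at 0 hpa and 3.89 at 7 dpa, where both TCDD arrays stood at 9.07 or higher. None of these differences of ahr2 and cyb5a was called. The spread is shared over all 6 groups, so the gap of 3.51 between the cyb5a arrays of TCDD 6 hpa also widens its tests at other times. Genes of the receptor's cytosolic complex gave −0.46, then 0.079, for hsp90ab1 and −0.18, then 0.67, for hsp90aa1.2, which encode the Hsp90 chaperone. The genes of its p23 cochaperone gave −1.16, then −0.10, for ptges3a and −0.70, then −0.37, for ptges3b. The remaining members, ahr1a, ahcy, arnt2, cyp1d1, gsto2 and sox9b, lay between −0.55 and 0.22, and then between −0.59 and 0.52.

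Some genes outside that list differed with TCDD at other times. The gene cxxc5a, a Wnt inhibitor that binds Dishevelled in mammals, was called at 0 hpa (2.88, adjusted p = 0.00784) and at 7 dpa (1.99, adjusted p = 0.0330). At 6 hpa it stood at 4.60 and 4.39 in control and at 4.58 and 5.32 with TCDD, where the groups overlapped. Its difference at 6 hpa was 0.46 with all arrays (95% interval −0.10 to 1.01) and then 0.82. The first is 2.42 less than at 0 hpa (interval −3.21 to −1.64). That change did not pass over all probe sets (adjusted p = 0.515). For scale, TCDD against control called 4 probe sets at 0 hpa (0.0258%) and 18 at 7 dpa (0.116%), each against its own controls. Those tests use the same shared spread, to which TCDD 6 hpa replicate 1 adds.

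The gene notum1b, a secreted enzyme that removes the lipid of Wnt proteins, stood at 3.51 and 3.94 in control at 6 hpa and at 4.42 and 4.63 with TCDD. The groups did not overlap, and the difference was 0.80 (95% interval 0.17 to 1.44) and then 0.91, beside 1.93 at 0 hpa and 1.46 at 7 dpa, none of them called. The gene cdo1, cysteine dioxygenase, which starts the breakdown of cysteine to taurine and sulfate, stood at 7.10 and 7.71 in control and at 5.67 and 5.51 with TCDD. Both TCDD arrays lay well below both controls and close to each other. The difference was −1.81 ± 0.25 (95% interval −2.39 to −1.23), and its adjusted p of 0.313 was the smallest outside the called genes. Without TCDD 6 hpa replicate 1 it was −1.89 (adjusted p = 0.428). At 0 hpa cdo1 was called lower (−2.24, adjusted p = 0.0434), and at 7 dpa its difference was −0.72.

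**Figure D2:**
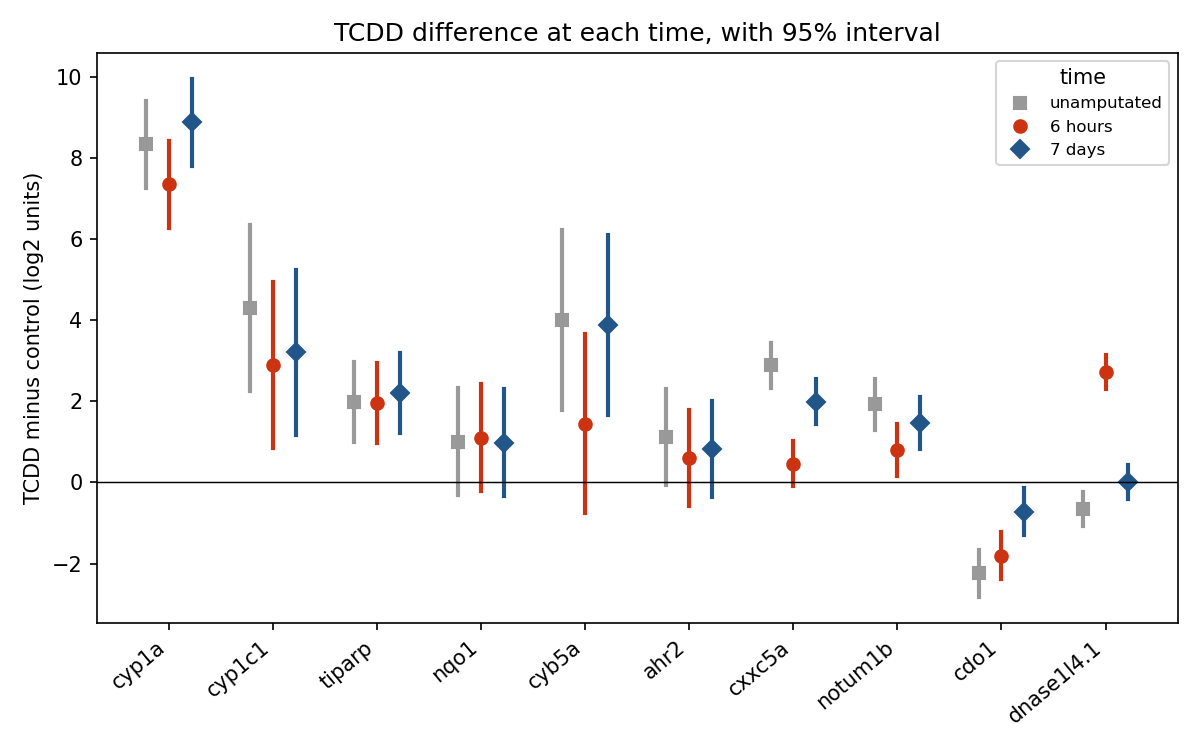
TCDD minus control in log2 units, with 95% intervals from limma, for 10 genes in unamputated fish (grey squares), at 6 hours (red circles) and at 7 days (blue diamonds), with 2 arrays per group. cyp1a is high at all 3 times and dnase1l4.1 at 6 hours only. cxxc5a and cyb5a have their smallest difference at 6 hours, 0.46 and 1.45, which without TCDD 6 hpa replicate 1 were 0.82 and 3.21. The differences of cyp1a, cyp1c1, tiparp, ahr2 and notum1b are also smallest at 6 hours with all arrays. Without that replicate this no longer holds for cyp1c1, tiparp and ahr2.

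Since so few genes passed, genes in which both TCDD arrays lay on the same side of both controls were also listed, by a rule chosen after the values had been seen. It takes probe sets with an unadjusted p under 0.05 both with and without TCDD 6 hpa replicate 1 and with no overlap between groups. It held 109 probe sets (0.703%), 36 higher (0.232%) and 73 lower (0.471%), of which 77 had a single gene symbol, for 73 genes. Those described are the first 15 in each direction among probe sets with a single gene symbol, ordered by the smaller of both differences. Some probe sets without a symbol ranked among them and were passed over. Apart from cyp1a and dnase1l4.1, none passed over all probe sets, and their values are a description only.

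On the higher side anp32a, which encodes an acidic nuclear phosphoprotein of the chromatin-associated ANP32 family, stood at 8.83 and 8.08 in control and at 9.95 and 10.70 with TCDD (difference 1.87 ± 0.33, then 2.24, adjusted p = 0.805 with all arrays). It passed under quantile normalization, the only further probe set to do so. The apoptosis gene bbc3, known as Puma and activated by p53, stood at 4.77 and 4.33 in control and at 5.11 and 6.94 with TCDD (1.47, then 2.39). Its TCDD arrays both lay above the controls, but replicate 1 only just. The platelet glycoprotein gene gp1bb stood at 4.67 and 3.30 in control and at 5.39 and 5.46 with TCDD (1.44, then 1.48).

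Others on the higher side were mid1ip1l (1.19, then 1.56), oaz1a (0.65, then 1.03), which encodes the antizyme that limits polyamine synthesis, fam83d (0.65, then 0.83), which encodes a mitotic spindle protein, and npl (1.28, then 2.21), which encodes an enzyme that breaks down sialic acid. The transporter genes slc2a11l and slc38a8b differed by 1.28, then 1.73, and by 0.95, then 1.47. The gene vps9d1 differed by 0.72, then 0.76, on 1 probe set and by 0.08 to 0.23 on its other 3. For these genes, from anp32a to vps9d1, the TCDD differences at 0 hpa and 7 dpa lay between −0.16 and 0.75.

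On the lower side the gene trim63a, a muscle ubiquitin ligase of the MuRF family, stood at 7.94 and 8.64 in control and at 5.95 and 6.74 with TCDD (−1.95 ± 0.52, then −1.55). The titin gene ttn.2 stood at 10.36 and 9.22 in control and at 8.86 and 7.91 with TCDD on its brightest probe set (−1.41, then −1.89), and a second bright one gave −1.26, then −1.58. Its 2 dim probe sets gave 0.05 and −0.07. The actin gene acta1a stood at 9.09 and 9.46 in control and at 5.48 and 8.03 with TCDD, a difference of −2.52 that was −1.24 without TCDD 6 hpa replicate 1. Here most of the distance came from replicate 1. The TCDD difference of acta1a was −0.88 at 0 hpa and −0.38 at 7 dpa, neither of them called.

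The sarcolemma protein gene slmapa had 5 probe sets, all lower with TCDD by 0.42 to 1.95 log2 units, and 3 of them met the rule. The first of these in its order stood at 6.90 and 6.57 in control and at 5.46 and 5.44 with TCDD (−1.29 ± 0.28, and −1.30 without TCDD 6 hpa replicate 1). Both TCDD arrays lay together and more than 1 log2 unit below both controls. The spectrin gene sptbn1, a part of the membrane skeleton, stood at 8.07 and 7.82 in control and at 6.60 and 6.77 with TCDD (−1.26, then −1.18), and its other probe sets gave −0.39, then −1.19, and −0.23, then −0.18.

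Further genes on the lower side were glula (−2.13, then −1.49), the glutamine synthetase gene, palm1b (−1.94, then −1.63), a paralemmin gene, and gata1a (−1.60, then −1.40), which encodes the master transcription factor of red blood cells. The gene lrig1 (−1.51, then −1.49) restrains receptor tyrosine kinases in mammals. The gene pde4ba (−1.23, then −1.15, with −1.20, then −0.57, on a brighter probe set) encodes a phosphodiesterase that degrades cyclic AMP. The rest were arhgef4 (−1.52, then −1.11), ndrg3a (−1.32, then −1.22) and the phosphatase gene ptp4a3b (−1.22, then −1.13, with −1.26, then −0.60, and −0.08 on its other probe sets). For gata1a and lrig1 the control arrays themselves were 1.72 and 1.77 apart. At 0 hpa the TCDD differences of the genes from glula to ptp4a3b ran from −1.16 for ndrg3a to 0.85 for glula, with pde4ba at −0.79. At 7 dpa they ran from −0.40 for glula to 0.55 for lrig1, and none was called at either time.

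**Figure D3:**
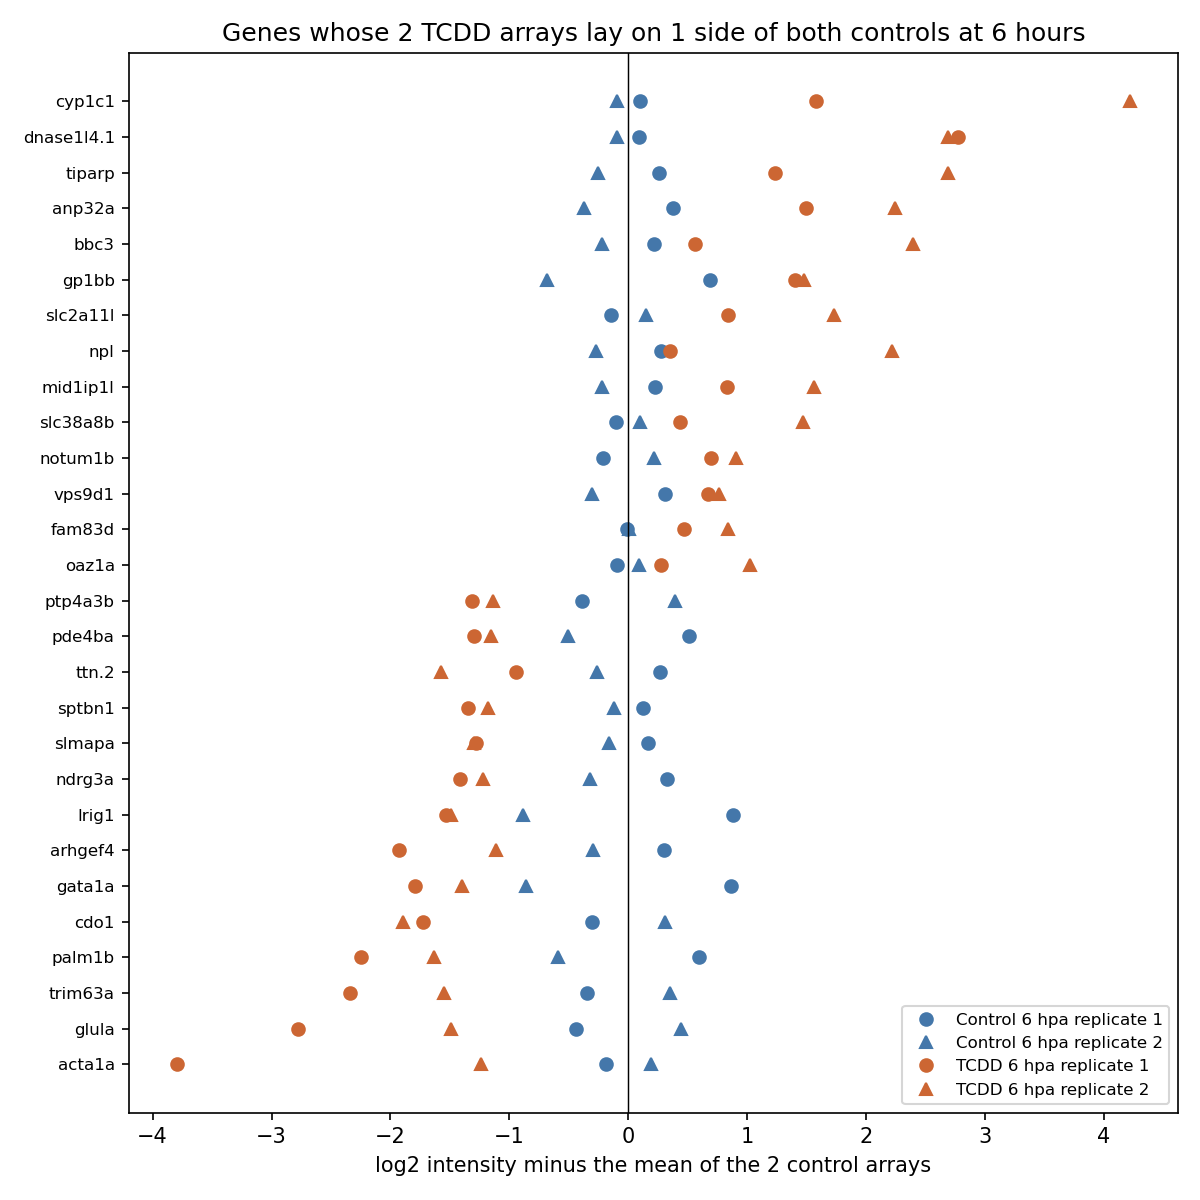
Log2 intensity minus the mean of both control arrays at 6 hpa for the described genes of the rule chosen after the values were seen, without cyp1a, which lies off the scale. Blue is control, orange is TCDD, circles are replicate 1 and triangles replicate 2. dnase1l4.1 has its 2 TCDD arrays almost on top of each other, while acta1a and cyp1c1 have theirs more than 2 log2 units apart.

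The wound genes of the first hours were looked at next, since they carry the early response of the amputated ventricle. They were chosen with earlier results of these arrays known. The gelatinase gene mmp9 stood at 9.80 and 10.04 in control and at 7.58 and 10.42 with TCDD. The collagenase gene mmp13a stood at 9.74 and 11.12 in control and at 8.25 and 11.12 with TCDD. The phosphate transporter gene slc20a1a stood at 9.65 and 9.01 in control and at 8.23 and 9.66 with TCDD. In all 3 genes TCDD replicate 1 lay below both controls and replicate 2 at or near the higher control.

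None of these 3 differences passed, and each changed sign without TCDD 6 hpa replicate 1: mmp9 gave −0.92 (95% interval −2.74 to 0.90) and then 0.50, mmp13a gave −0.75 (−2.66 to 1.17) and then 0.69, and slc20a1a gave −0.39 (−1.58 to 0.81) and then 0.33. The intervals leave room for differences of more than 1.5-fold in either direction. Before amputation the same genes stood between 3.69 and 6.61 in both treatments, below every array at 6 hpa.

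The genes nt5dc2 and, on its brightest probe set, igfbp1a did not split in this way. The first stood at 9.62 and 9.01 in control and at 9.83 and 9.93 with TCDD (0.56, then 0.61, the first with a 95% interval of −0.28 to 1.40). The second, whose product binds insulin-like growth factors, stood at 9.23 and 8.50 in control and at 9.91 and 10.04 with TCDD. Its difference was 1.11 ± 0.46 (95% interval 0.06 to 2.16, adjusted p = 1.00), 1.17 without TCDD 6 hpa replicate 1, and 0.67, then 1.15, on its second probe set. That second probe set stood at 9.16 and 8.37 in control and at 8.94 and 9.91 with TCDD. There replicate 1 lay between the controls and replicate 2 above both. In unamputated fish igfbp1a differed by −1.09, and the change of its TCDD effect from 0 to 6 hpa, 2.19, did not pass over all probe sets (adjusted p = 1.00).

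**Figure D4:**
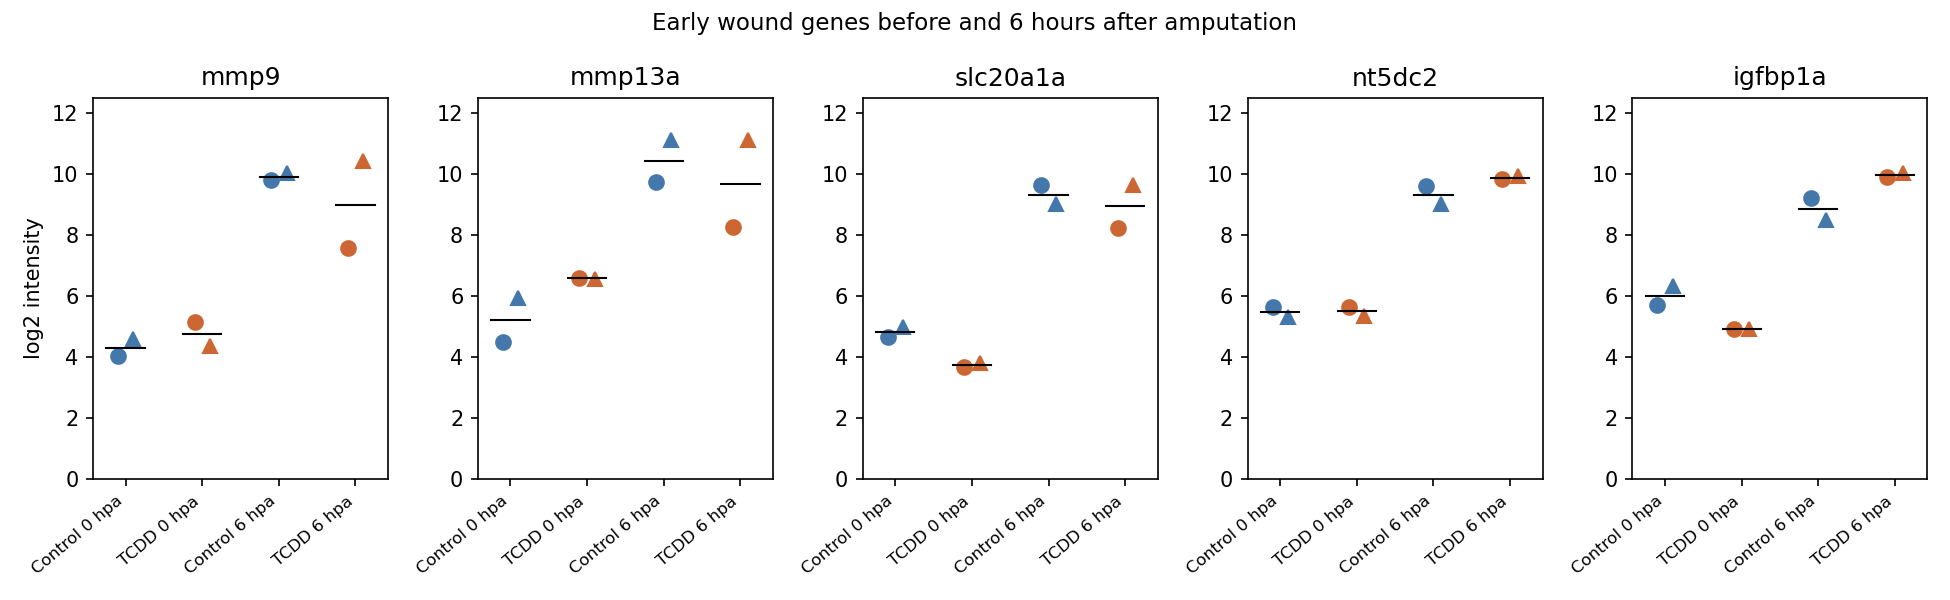
Log2 intensity of 5 early wound genes in unamputated fish and at 6 hpa. Blue is control, orange is TCDD, circles are replicate 1, triangles replicate 2 and the black bar is the mean of the 2 arrays. TCDD 6 hpa replicate 1 lies below its partner by 2.83 in mmp9 and by 2.87 in mmp13a. It lies next to it in nt5dc2 and in igfbp1a, of which only the brightest probe set is shown.

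A set of 29 gene lists, 9 of cell type markers and 20 of pathways, was read beside the receptor list in the same way, each by counts and by the median over its measured genes. Apart from cyp1a no member of any list was called. Over all 8793 genes, 62 were higher and 226 lower at an unadjusted p under 0.05, and without TCDD 6 hpa replicate 1 the numbers were 167 and 56. Many list medians were set by that array. Among the 804 genes with a mean level above 7 over all arrays, the median was −1.15 from the control mean on TCDD replicate 1 and 0.10 on TCDD replicate 2.

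Oxidative phosphorylation and the citric acid cycle are an example. Of 92 measured genes, 91 were below 0, 8 of them at an unadjusted p under 0.05, with a median of −0.58. Of the 804 genes with a mean level above 7, 701 were below 0, 92 of them at such a p, with a median of −0.53. On the separate arrays the median of the list was −1.26 on TCDD replicate 1 and 0.10 on TCDD replicate 2. Without TCDD 6 hpa replicate 1 only 33 of its 92 genes were below 0, beside 314 of the 804. The mitochondrial dehydrogenase gene idh2 stood at 11.53 and 11.10 in control and at 10.04 and 10.80 with TCDD (−0.89, and −0.51 without TCDD 6 hpa replicate 1). The complex I gene ndufv1 differed by −0.85 and then by −0.47.

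Immediate early genes had a median of −0.28 over 56 genes, which became 0.26 without TCDD 6 hpa replicate 1. With all arrays 41 members lay below 0 and 15 above, while without that replicate 14 lay below and 42 above. The members named next were picked by their p with all arrays. Unlike most of the list, they stayed lower without that replicate. The first was stat3, a transcription factor of cytokine signalling. It stood at 7.69 and 7.02 in control and at 5.62 and 6.52 with TCDD (−1.28, then −0.84). The AP-1 gene fosl2 differed by −0.79, then −0.47, on its brightest probe set, and its other probe sets gave −0.17, then 0.31, and −0.44, then 0.21. Matrix proteases and their inhibitors, 15 genes, went from −0.28 to 0.20. The 24 antioxidant genes went from −0.08 to 0.30. Heat shock genes, 53 in all, went from −0.28 to 0.01, and their member hspd1, the mitochondrial chaperonin gene, differed by −0.95 and then by −0.84.

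Some pathway lists kept the sign of their median without TCDD 6 hpa replicate 1. Fatty acid uptake and oxidation (49 genes) had −0.48 and then −0.08, with cpt2, a carnitine palmitoyltransferase gene, at −0.92, then −0.72, and the uncoupling protein gene ucp3 at −1.19, then −0.42. Glycolysis and hypoxia (56 genes) had −0.30 and then −0.12, with 39 and then 35 below 0. With all arrays 10 were lower and 1 higher at an unadjusted p under 0.05. Beside them were 226 lower and 62 higher of all 8793 genes, and 92 and 6 of the 804 with a mean level above 7. The glycolysis members pgk1 and eno1a, which encode glycolytic enzymes, differed by −1.16 and −0.77, and by −0.55 and −0.56 without TCDD 6 hpa replicate 1. Ion channel and calcium handling genes (19) had −0.18 both times, with atp2a2a, the calcium pump of the sarcoplasmic reticulum, at 11.15 and 10.83 in control and 9.42 and 10.21 with TCDD (−1.18, then −0.78). Dimmer second probe sets gave 0.15, then −0.18, for cpt2, −0.03, then 0.08, for pgk1 and 0.40, then 0.12, for atp2a2a.

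The medians of the remaining pathway lists ran from −0.18 for ribosome biogenesis (70 genes) to 0.11 for the cell cycle (81 genes). Without TCDD 6 hpa replicate 1 the same lists ran from −0.10 for extracellular matrix (43 genes) to 0.19 for apoptosis and p53 (33 genes). Within them aldh1a2, the retinoic acid synthesis enzyme of epicardium and endocardium, stood at 8.49 and 8.43 in control and at 6.02 and 7.70 with TCDD (−1.60, then −0.76). The apoptosis inhibitor gene mcl1a stood at 10.62 and 9.66 in control and at 9.20 and 9.20 with TCDD (−0.94, the same without TCDD 6 hpa replicate 1). The cardiac transcription factor genes meis1b and gata5 differed by −1.21, then −0.84, and by −0.87, then −0.49.

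Cell type markers were read as a check on what each pool held. In bulk tissue, fewer cells of a type and less RNA per cell cannot be told apart. The 9 cardiomyocyte markers had a median of −0.44, and −0.26 without TCDD 6 hpa replicate 1. Beside them, the 804 genes with a mean level above 7 had −0.53, then 0.10. In 7 of the 9 both TCDD arrays lay below both controls, where 9.19% of all probe sets and 172 of the 804 genes with a mean level above 7 did so. Of the 9, 3 were lower at an unadjusted p under 0.05, and then 1. Among the 804 genes with a mean level above 7 it was 92, and then 15. The summed intensity of the 9 markers was 35413 and 35729 in control and 24094 and 30586 with TCDD, both TCDD pools below both controls. The levels of trim63a, slmapa, acta1a and ttn.2 described above also lay below both controls on both TCDD pools. The rule that named these genes required this, so it adds nothing to the marker values. Of these, ttn.2 is itself one of the 9 markers. Between the TCDD pools it was lower on replicate 2, while the sum was lower on replicate 1. The part of cardiomyocyte content in those differences was not tested.

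Epicardial and fibroblast markers (15 genes) had a median of −0.34 and of −0.30 without TCDD 6 hpa replicate 1, with 12 and then 13 of them below 0. Their summed intensity was 753 and 691 in control and 273 and 486 with TCDD, again without overlap. The largest part of each sum came from aldh1a2, at 8.49 and 8.43 in control and 6.02 and 7.70 with TCDD. Of the 15 genes, 6 and 3 lay above a log2 intensity of 5 in control and 1 and 3 with TCDD. For smooth muscle and valve markers the sums did not overlap either, at 1292 and 1156 in control and 489 and 963 with TCDD. Most of each sum came from desma, at log2 levels of 10.20 and 10.03 in control and 8.63 and 9.78 with TCDD. In 2 of these 6 genes both TCDD arrays lay below both controls, and in 0 above. Their median difference from the control mean was 0.01 on TCDD replicate 1 and −0.26 on TCDD replicate 2. The sums thus largely describe desma and not the list. Sums of epidermal and mucosal markers, 1982 and 2450 in control and 707 and 1975 with TCDD, were also apart, but on TCDD replicate 2 only just. Of these 19 genes, 4 lay below both controls on both TCDD arrays and 1 above, beside 9.19% and 11.1% of all probe sets. In the remaining marker lists the sums overlapped. The fibronectin gene fn1b stood at 6.70 and 6.96 in control and at 4.44 and 6.09 with TCDD (−1.56, then −0.73), and sparc, a matrix glycoprotein gene, at 5.49 and 4.52 against 3.78 and 4.23 (−1.0, then −0.78).

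Leukocyte markers (17 genes) had a median of −0.69 that became 0.25 without TCDD 6 hpa replicate 1, and their summed intensity was 1138 and 2160 in control and 370 and 2053 with TCDD. TCDD replicate 1 alone lay below the rest. Their part in the low mmp9 and mmp13a of that array was not tested. Erythrocyte markers (18 genes) summed to 24900 and 17074 in control and to 26002 and 21007 with TCDD, with a median of −0.11, then −0.07. Within that list gata1a differed by −1.60, then −1.40. The brighter nt5c2l1 went the other way, at 11.34 and 10.62 in control and 11.95 and 12.03 with TCDD (1.01, then 1.05). Medians of the other marker lists were −0.15, then −0.26, for smooth muscle and valve, −0.12, then −0.00, for endothelium, −0.03, then −0.19, for epidermis, 0.06, then 0.02, for thrombocytes and 0.07, then −0.04, for pancreas, gut and liver.

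**Figure D5:**
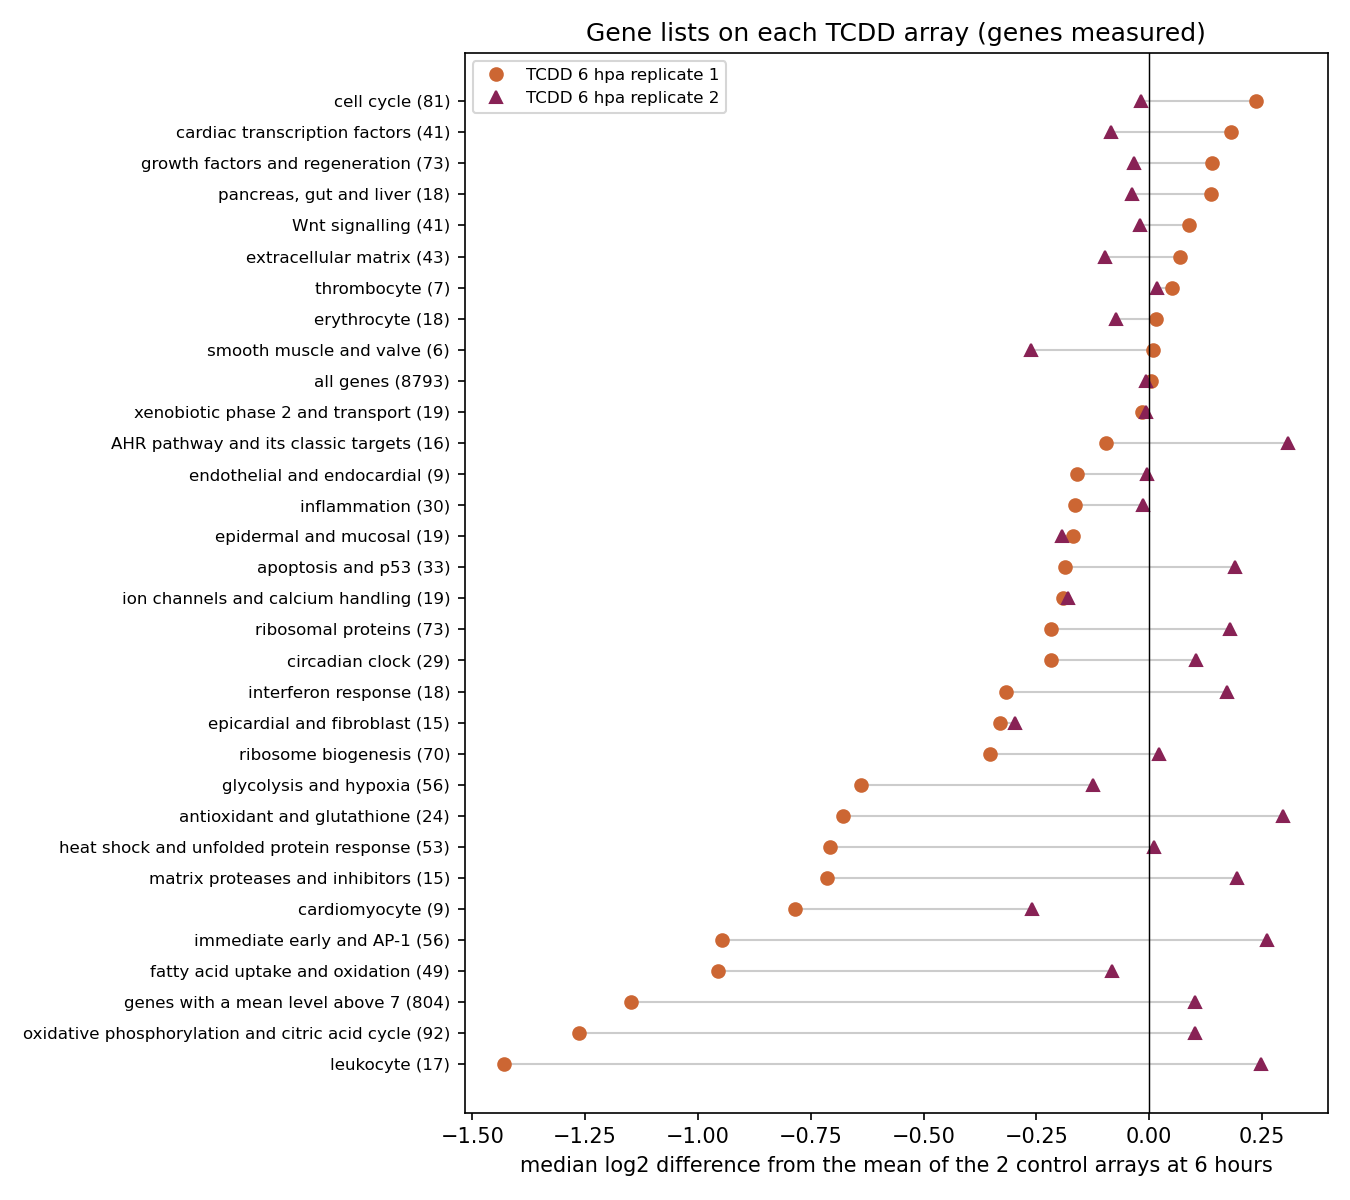
Median log2 difference of each gene list from the mean of both control arrays at 6 hpa, on TCDD replicate 1 (orange circles) and TCDD replicate 2 (purple triangles). The number of genes measured is in brackets. The arrays lie far apart in leukocyte, oxidative phosphorylation and bright genes, and close together in epicardial and fibroblast, ion channel and epidermal lists.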

How the data were processed

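The deposited intensities are RMA values, per the submitters' processing notes. Which RMA software was used, and whether the 12 arrays were normalized together, is not given in the sources used here. Their range shows a linear scale. Per the labels' protocols, 500 ng of total RNA was amplified for each array. For the present comparison log2 was taken, 115 of 15617 probe sets were left out as Affymetrix controls and 15502 were tested without a filter. GEO's platform annotation, updated through a RefSeq table, gave 1 symbol to 10795 of them, several to 135 and none to 4572. No genome build is named, so no positions are given.

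The limma package (3.58.1, R 4.3.3) was used to fit 6 group means to the 12 arrays (6 residual and 2.87 prior degrees of freedom), with Benjamini-Hochberg adjustment over all probe sets. The fit was tested on simulated data in which each probe set had the same spread on all arrays. Those data held no array like TCDD 6 hpa replicate 1, so they cannot show how such an array affects the calls. An exact permutation test of 2 against 2 arrays cannot go below p = 0.333 and was not used. A gene enters a list through its brightest probe set, and atp5s was removed after matching because its current gene is an assembly factor.

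Named genes are those called with and without TCDD 6 hpa replicate 1, up to 3 called members of a list or otherwise the 2 with the smallest p, 15 genes fixed whatever their result, and those of the rule stated in the report as chosen later. Comparisons, members and lists were chosen with earlier results of these data known. Alternatives are in the closing section. The authors' own comparison tables were not used here.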

Additional observations from a re-analysis of the deposited data

Results flagged for a closer look

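The TCDD effect differed between times, by a test of the difference itself in limma over all probe sets, for 2 genes. For dnase1l4.1 the TCDD difference was 3.39 log2 units higher at 6 hpa than at 0 hpa (adjusted p = 0.00699) and 2.72 higher than at 7 dpa (adjusted p = 0.0221), with both arrays of TCDD 6 hpa above all other 10 arrays. The first call held without TCDD 6 hpa replicate 1 (adjusted p = 0.0410) and the second was lost (0.101), as it was with a replicate block (0.0578) and with array weights (0.156), within a range of 0.00409 to 0.156 over its alternatives.

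For ca2, a carbonic anhydrase gene, the TCDD difference was −4.30 ± 0.31 log2 units at 6 hpa relative to 7 dpa (adjusted p = 0.00395, and 0.0192 without TCDD 6 hpa replicate 1). The gene stood at 3.24 and 3.01 in control and at 2.81 and 3.12 with TCDD at 6 hpa. At 7 dpa it stood at 4.65 and 4.91 in control and at 9.19 and 8.65 with TCDD, a difference of 4.14 (adjusted p = 0.00015), while its second probe set gave 0.68 there.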

How the results depend on the processing

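At 6 hpa the calls of cyp1a and dnase1l4.1 held in 20 of 21 alternatives. The exception was the fit to only the 4 arrays at 6 hpa, which called 0 probe sets (0 higher, 0 list members, 153 at an unadjusted p under 0.05). Leaving out 1 array at a time gave 2 to 762 calls, 2 to 255 higher and 0 to 507 lower, with 1 to 123 in the gene lists. The 762 came without TCDD 6 hpa replicate 2, where replicate 1 alone stands for its group and is assumed to vary like the other groups. Every other array left out gave 2. Quantile normalization gave 3, adding anp32a.

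The change of the TCDD effect from 0 to 6 hpa had 1 call, 0 under quantile normalization and 0 to 120 without 1 array (120 without TCDD 6 hpa replicate 2, 2 without Control 0 hpa replicate 1, and 0 without either array of Control 6 hpa or of TCDD 0 hpa). Between 6 hpa and 7 dpa there were 2 calls, 4 with trend and robust settings, 3 with a pseudocount of 16, 1 under quantile normalization, with array weights or with a replicate block, and 1 to 265 without 1 array (265 without TCDD 6 hpa replicate 2, 23 and 7 without Control 7 dpa replicate 2 and 1, and 6 without TCDD 7 dpa replicate 2). For dnase1l4.1 the change from 0 hpa held in 15 of 20 alternatives (adjusted p 0.000757 to 0.0998) and that from 7 dpa in 11 of 20 (0.00409 to 0.156).

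The replicate block kept both calls at 6 hpa (2). No label says that the shared replicate numbers pair the arrays. Replicate differences correlated at 0.48 between control and TCDD at 0 hpa, at 0.56 at 7 dpa and at −0.14 at 6 hpa, and over all pairs of groups at −0.38 to 0.56, so the numbers were not treated as pairs. Those of TCDD 6 hpa correlated at 0.47 and 0.43 with Control and TCDD 0 hpa, and at −0.38 and −0.35 with Control and TCDD 7 dpa. The acta1 3′ minus 5′ difference was larger on replicate 1 than on replicate 2 in every group, at 1.12 and 0.16 in Control 6 hpa. At 7 dpa the replicates were nearly equal, at 0.83 and 0.81 in control and 1.00 and 0.96 with TCDD. For gapdh the order was reversed in TCDD 7 dpa, at 1.35 and 1.37.

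Of 2131 values of 102 single gene results, 2066 kept direction and side of the threshold and 22 turned direction, none of them a difference or change that was itself called. For a difference at 6 hpa, many settings return the same value by construction, so its direction could not turn there. These were array weights, trend and robust settings, the replicate block, 1 probe set per gene and leaving out dim probe sets. The fit to only the arrays at 6 hpa and leaving out an array of another group also belong here. In these settings only the side of the threshold was open to change. Centring each array on its median turned gsto2 to −0.027 and moved the median of all probe sets from 0.03 to −0.05. Leaving out 1 array gave ranges across 0 for klf2b (−0.16 to 0.83), prdx5 (−2.59 to 0.15), ctsd (−1.59 to 0.17), rpl22l1 (−1.60 to 0.13), rpl23a (−0.80 to 0.065), ahr2 (−0.28 to 1.5), mmp9 (−2.34 to 0.50), mmp13a (−2.18 to 0.69), slc20a1a (−1.10 to 0.33), arnt2 (−0.27 to 0.18), cyb5a (−0.31 to 3.21), cyp1d1 (−0.25 to 0.51), gsto2 (−0.46 to 0.56), hsp90aa1.2 (−1.03 to 0.67), hsp90ab1 (−0.99 to 0.079) and the change of ca2 from 0 to 6 hpa (−0.27 to 0.052). The cause was not tested. With 2 arrays per group and a median standard error of 0.24 log2 units, small differences are not detectable, and dim probe sets carry no detection call.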
